A study of Gallus gallus with 4 samples.

Results

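Interleukins and chemokines are small secreted proteins by which leukocytes and epithelial cells signal to each other. Chemokines bind receptors coupled to G proteins and direct cell movement, whereas most interleukins bind receptors that signal through JAK kinases and STAT factors, and those of the IL-1 family signal through MyD88 towards NF-kB. In the bursa of Fabricius, the organ beside the cloaca where B cells of birds mature, lymphoid follicles lie under the surface epithelium, and the epithelium above each follicle takes up material from the lumen. The genes described here are those whose annotated symbol begins with IL and a number (IL34 apart) or with the CCL, CCR, CXCL, CXCR, XCL, XCR or CX3C stem of a chemokine or chemokine receptor. There are 74 of them among 13009 genes named on the array, each represented by its brightest probe set by mean log2 signal. By role they comprise 13 chemokines, 11 chemokine receptors, 17 interleukins, 8 receptors of the IL-1 family, 15 type I cytokine receptors, 6 type II cytokine receptors, 3 genes of the IL-17 receptor family and 1 enzyme, IL4I1. The alpha chains IL2RA and IL15RA were counted with the type I receptors.

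A pair of epithelia of the bursa was compared. The follicle-associated epithelium (FAE) was represented by 2 arrays, and the interfollicular epithelium (IFE), which lies between the follicles, by the other two. All samples came from healthy Line-M chicks 19 days old, raised free of specific pathogens, and no group carried a treatment or a genetic change. Black ink, applied for 5 min, made the FAE visible, after which FAE was freed in 40 mM EDTA for 5 min at room temperature and IFE in the same solution for 30 min at 37 °C, and both were picked with a 29G needle. Epithelium and EDTA treatment therefore cannot be told apart in any comparison below. The source name of the IFE samples reads FAE, against their titles and cell type labels, which were used here. Whether replicates are different birds is not labelled, and p-values therefore reflect the spread between these 4 samples alone, which may be technical.

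Signals are on a linear scale, brought to a common trimmed mean on every array, so that a value of 1 lies near the array median. Replicates correlated at r = 0.965 in FAE and 0.917 in IFE over tested probe sets, and pairs of an FAE and an IFE array at 0.850 to 0.894. IFE replicate 2 stood apart from the rest in the ratio of 3' to 5' beta-actin signal, a sign of RNA quality, which was 31.2 there and 14.4 to 18.6 elsewhere, and in its background level, 1.02 against 0.671 to 0.722. The background level is the 95th percentile of 744 probe sets without a chicken name. The epithelial marker EPCAM was bright in both groups, at 315 and 412 in FAE and 501 and 554 in IFE. Not all epithelial markers were bright. OCLN was near background, at 1.10 and 1.06 in FAE and 1.24 and 1.22 in IFE. The M cell factor SOX8 was at 94.0 and 69.3 in FAE and 6.66 and 4.41 in IFE. Of 13 tested M cell markers, 6 were higher in FAE and 1 lower (limma, adjusted p under 0.05). The lower one was ANXA5, at 34.4 and 46.2 in FAE and 95.3 and 74.7 in IFE. The precision of every value is limited by the number of arrays.

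FAE had higher signal of 13 of the 48 tested genes and lower signal of 1, the chemokine IL8L2 (limma, adjusted p under 0.05 over 10388 tested genes). Among all genes tested, 6.92% were higher and 4.84% lower. The 13 were the chemokines IL8L1 and CXCL13L2, the chemokine receptors CXCR4 and CX3CR1, the interleukins IL1B, IL16 and IL18, the receptor chains IL2RG, IL4R, IL21R, IL13RA2 and IL10RA, and IL17REL. The median log2 fold change, FAE over IFE, was 0.24 over the 48 tested genes and -0.07 over all genes tested. Both FAE arrays lay above both IFE arrays for 22 of the 48 and below them for 8, where all genes gave 26.7% and 32.5%. At an unadjusted p of 0.05, 17 were higher and 4 lower. The count of higher genes was 3 without FAE replicate 1 (CXCR4, IL16 and IL17REL), where 1.77% of all genes were higher. Leaving out FAE replicate 2 gave 10, with 2.7% of all genes higher. Leaving out IFE replicate 1 gave 16, with 18.7% of all genes higher, and leaving out IFE replicate 2 gave 17, with 12.4%. The IL8L2 call was lost without FAE replicate 1, whereas 3 genes were lower with either IFE replicate left out, where 15.3% of all genes were lower without replicate 1 and 11.5% without replicate 2.

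In tissue samples of this kind, fewer cells of a type and less RNA per cell cannot be told apart. Most tested markers of macrophages and B cells were higher in FAE, but those of heterophils were mixed. Of 4 tested heterophil markers, 1 was higher in FAE and 1 lower (limma, 1 and 3 at an unadjusted p of 0.05), with a median log2 fold change of -1.35. Of 14 tested markers of macrophages and dendritic cells, 9 were higher in FAE and 0 lower (limma, with 11 higher and 1 lower at an unadjusted p of 0.05), and the summed signal of the whole list was 1221 to 1318 in FAE and 237 to 409 in IFE. SPI1, CSF1R and the leukocyte integrin ITGB2 had the lowest adjusted p of that list, while MARCO, a scavenger receptor, was dim, at 1.06 and 0.987 in FAE and 1.62 and 1.69 in IFE. The gene lower at an unadjusted p of 0.05 was IRF8, named after its value was seen. IRF8 was at 3.94 and 3.87 in FAE and 12.6 and 7.03 in IFE (limma, log2 fold change -1.27, adjusted p = 0.0587). Of 13 tested B cell markers, 10 were higher and 0 lower (11 and 0 at an unadjusted p of 0.05), led by BTK, SYK and CD79B, and the list summed to 464 to 509 in FAE and 93.2 to 126 in IFE. PAX5, also on that list, went the other way and did not pass. It was at 1.44 and 0.859 in FAE and 1.52 and 2.65 in IFE (limma, log2 fold change -0.85, adjusted p = 0.285). Among 8 tested T cell markers, 1 was higher, CD3E, and 0 lower (3 higher and 1 lower at an unadjusted p of 0.05). CD3D and CD28 had log2 fold changes of 1.53 and 2.54 and did not pass (limma, adjusted p = 0.103 and 0.1725). CD28 was under background on 1 IFE array. The T cell list summed to 67.2 to 73.4 in FAE and 47.8 to 75.7 in IFE. These sums include GATA3, at 11.1 and 12.5 in FAE and 15.4 and 49.95 in IFE, which made up most of the IFE replicate 2 sum. The T cell kinase LCK was under background on all 4 arrays. Epithelial markers summed to 1447 to 1799 in FAE and 2424 to 2589 in IFE, with 3 of 15 tested lower and 1 higher. The part of these cell types in the results below was not tested.

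**Figure D1:**
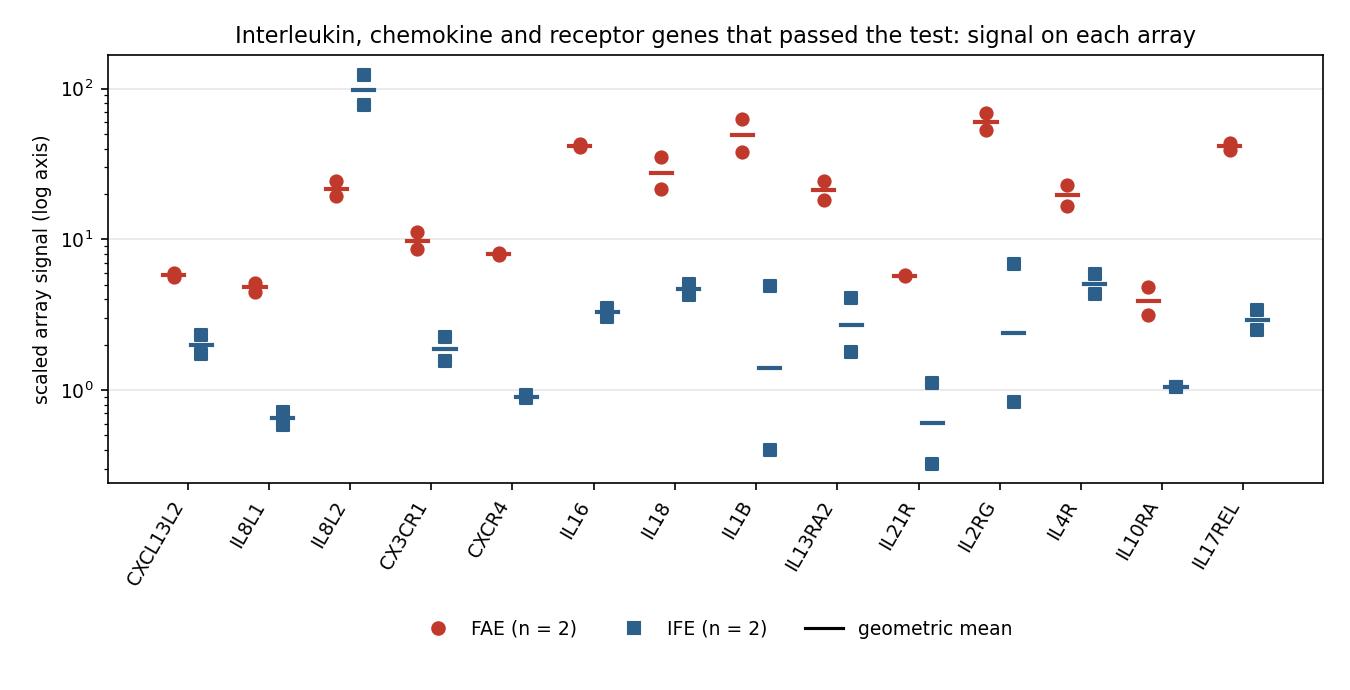
Scaled array signal, on a log axis, of the 14 interleukin, chemokine and receptor genes that passed the test, with FAE arrays as red circles, IFE arrays as blue squares and short lines for the geometric mean of the 2 arrays of a group. The groups overlap for none of the 14 genes, which adds no support, since they were chosen by adjusted p on these same arrays. IL8L2 alone lies lower in FAE, and IL1B, IL2RG and IL21R differ most between the IFE arrays.

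Among the chemokines, a pair of neighbouring genes went in opposite directions. IL8L1 and IL8L2 are the chicken relatives of mammalian CXCL8, the attractant of neutrophils, and stand next to each other in the genome with no protein-coding gene between them. IL8L1 had signals of 5.11 and 4.50 in FAE, against 0.583 and 0.720 in IFE. Both IFE values were under background, so IL8L1 was at least 5.597-fold higher in FAE (adjusted p = 0.00351). IL8L2 had signals of 19.3 and 24.3 in FAE, against 77.2 and 124 in IFE, giving a log2 fold change of -2.18 with an SE of 0.29 (adjusted p = 0.00561). IL8L2 was thus bright in both epithelia and lower in FAE on every array. The IL8L2 probe set is of a type that can cross-hybridise, and no other probe set for the gene was on the array. Without FAE replicate 1, neither of the pair passed.

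CXCL13L2 also rose. It is 1 of the chicken genes related to CXCL13, the chemokine that in mammals draws B cells into follicles. Its signals were 6.0 and 5.66 in FAE, against 1.72 and 2.32 in IFE, giving a log2 fold change of 1.54 with an SE of 0.30 (adjusted p = 0.0199). The call did not hold with either FAE replicate left out. Its neighbour CXCL13L3 lay close to background in both groups, at 1.02 and 1.33 in FAE and 1.09 and 1.07 in IFE (log2 fold change 0.11, adjusted p = 0.899). CXCR5, the receptor of CXCL13 in mammals, gave no signal above background on any array, with 0.0288 and 0.0451 in FAE and 0.0313 and 0.0388 in IFE, and was not tested.

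Of the other chemokines, CCL20 had high signal in both epithelia and did not separate them. This ligand of CCR6, which the epithelium over mammalian Peyer's patches is known to make, stood at 45.8 and 65.8 in FAE and 54.3 and 57.8 in IFE (log2 fold change -0.03, SE 0.25, adjusted p = 0.955). CCR6 itself was near background, at 0.729 and 0.645 in FAE and 1.43 and 0.0664 in IFE, and its log2 fold change of 1.15 had an SE of 1.501. CCL19, the CCR7 ligand of lymphoid tissue, was at 9.07 and 6.29 in FAE and 3.70 and 2.12 in IFE. Its groups did not overlap, with FAE above as for 26.7% of all genes. The CCL19 log2 fold change of 1.43 (SE 0.37) had an adjusted p of 0.0511 (limma) and did not pass. It passed with an offset before log2 (limma, adjusted p = 0.0410, with 7.73% of all genes higher). With replicate number as a block it passed too (adjusted p = 0.0160, with 8.38% of all genes higher). CCR7 was under background on all 4 arrays, at 0.338 to 0.470.

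CXCL12, the ligand of CXCR4 and a retention signal for lymphocytes, varied widely within both groups. It was at 4.12 and 10.4 in FAE and 15.0 and 2.33 in IFE, so that both FAE values lay between the IFE values (log2 fold change 0.15, SE 0.85, adjusted p = 0.931). A second CXCL12 probe set, at 1.28 and 1.58 in FAE and 2.68 and 1.44 in IFE, did not pass either. CCL1, CCL4, CCL17 and CX3CL1 gave log2 fold changes between -0.53 and 0.98 and did not pass. CXCL14 and XCL1 were too dim to be tested.

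Of 6 tested chemokine receptors, 2 were higher in FAE. CXCR4, which B cell precursors and many leukocytes carry, was at 7.81 and 8.09 in FAE, against 0.930 and 0.881 in IFE. The replicates were close together in both groups, and the log2 fold change was 3.13 (SE 0.29, adjusted p = 0.00166), with the IFE replicate 2 value under the background of its array. CXCR4 passed under all 13 alternative settings, each replicate left out in turn included. CX3CR1, a receptor of mononuclear phagocytes that binds CX3CL1, was at 11.2 and 8.59 in FAE and 2.24 and 1.55 in IFE (log2 fold change 2.40, SE 0.32, adjusted p = 0.00525), and did not pass without FAE replicate 1. A second CX3CR1 probe set was under background on 3 of the 4 arrays and gave no test. The gene on one side of CX3CR1, CCR8, did not pass, at 1.19 and 1.34 in FAE and 1.38 and 1.25 in IFE, and the gene on its other side, CCR4, was under background on all arrays. CX3CL1 was near background, at 0.719 and 0.425 in FAE and 0.276 and 1.86 in IFE. CCR9 and CXCR7, the atypical receptor of CXCL12, had log2 fold changes of -0.03 and 0.11 and did not pass. CCR8L and XCR1 were too dim to be tested.

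Of 17 interleukin genes, 7 were bright enough to test, and 3 of these were higher in FAE. IL1B, the fever cytokine released by activated macrophages, was at 62.5 and 38.2 in FAE, against 4.90 and 0.398 in IFE. FAE was far above IFE on every array, but the IFE arrays differed widely and the second was under background. The log2 fold change was 5.13 (SE 1.02, adjusted p = 0.0224), with 3.32 without IFE replicate 2 and 6.94 when only that replicate was kept, and the call was lost without FAE replicate 1. IL18, a relative of IL1B that is made as an inactive precursor in mammals, was at 34.9 and 21.7 in FAE and 5.09 and 4.27 in IFE (log2 fold change 2.56, SE 0.31, adjusted p = 0.00412). It did not pass without FAE replicate 1. A second IL18 probe set was dimmer, at 1.23 and 1.17 in FAE and 0.596 and 0.270 in IFE, with both IFE values under background. It did not pass.

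IL16, a lymphocyte product that attracts cells bearing CD4, had the lowest adjusted p among these genes together with IL17REL. Its signals were 40.6 and 42.8 in FAE, against 3.52 and 3.06 in IFE, giving a log2 fold change of 3.67 with an SE of 0.25 (adjusted p = 0.00145). The IL16 difference was many times the spread between replicates and passed without each replicate in turn. Another IL16 probe set was under background on all 4 arrays, and the one used may cross-hybridise. CD4 was too dim to be tested, at 0.974 and 1.24 in FAE and 0.173 and 0.374 in IFE.

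The other tested interleukins did not pass. IL15, a growth factor for lymphocytes that many epithelia make, was at 1.44 and 1.12 in FAE and 3.39 and 2.53 in IFE. Its groups did not overlap, with FAE below as for 32.5% of all genes. The IL15 log2 fold change was -1.21 (limma, SE 0.35, adjusted p = 0.0716), and -1.42 without IFE replicate 2. IL6 was at 3.83 and 3.73 in FAE and 6.70 and 4.41 in IFE (log2 fold change -0.52, SE 0.31, adjusted p = 0.330). A second IL6 probe set, at 2.18 and 1.62 in FAE and 2.78 and 5.19 in IFE, gave -1.02, which did not pass. Without IFE replicate 2 the log2 fold change of the main IL6 probe set was -0.82. IL10 was at 0.680 and 0.619 in FAE and 0.311 and 1.89 in IFE, and IL17A at 2.08 and 1.47 in FAE and 1.79 and 1.49 in IFE, with groups that overlapped for both. The T cell growth factor IL2, the T helper products IL4, IL9, IL13, IL17F, IL21 and IL22, both chains of IL12 and IL17D were too dim to be tested, and 8 of these 10 were under background on all 4 arrays.

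**Figure D2:**
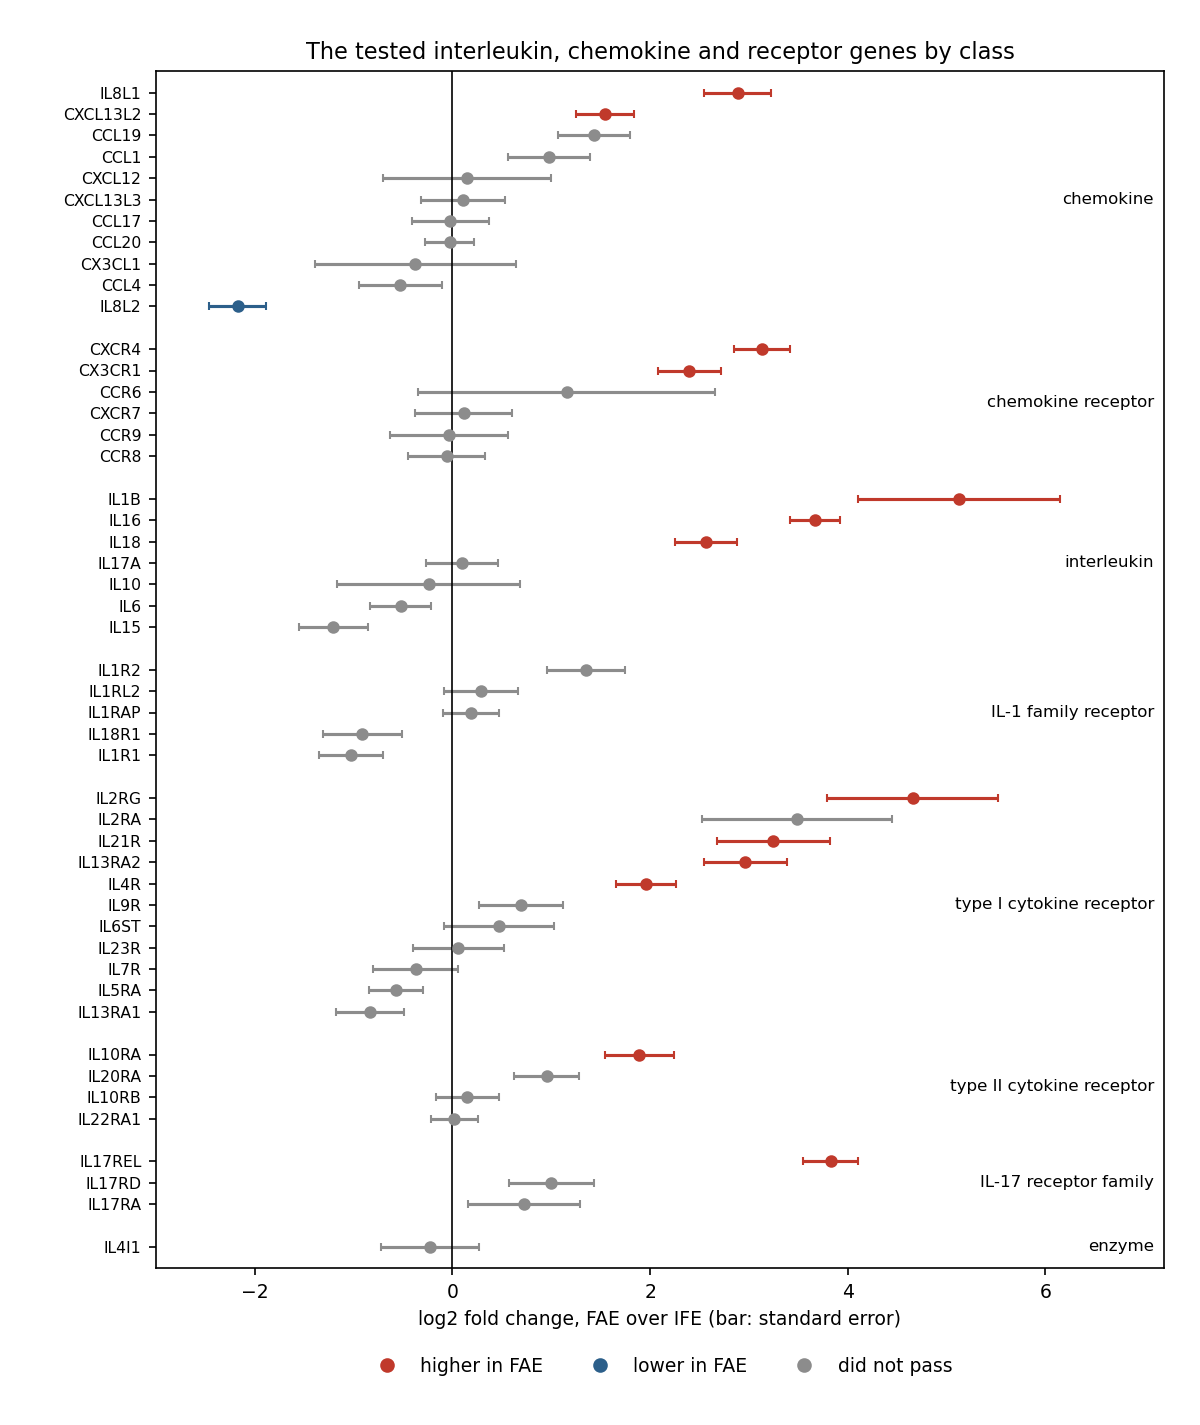
Log2 fold change, FAE over IFE, of the 48 tested genes grouped by class, with bars for the standard error from limma; values are as fitted, also for IL8L1, IL2RA and IL17RA, whose IFE arrays were under background. Genes higher in FAE are red, the single lower gene is blue and those that did not pass are grey; the receptors of the IL-1 family hold no called gene, and the widest bars belong to CCR6, CX3CL1 and IL1B.

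Of the receptors of IL-1 and its relatives, 5 were tested and 0 passed (limma, with 1 higher and 1 lower at an unadjusted p of 0.05). IL1R1, the signalling receptor of IL1B, was at 11.4 and 19.4 in FAE and 27.4 and 33.5 in IFE, giving a log2 fold change of -1.03 with an SE of 0.32 (adjusted p = 0.0888). IL1R2, a decoy receptor that binds IL1B without signalling, was at 4.25 and 2.80 in FAE and 1.06 and 1.73 in IFE, giving a log2 fold change of 1.35 with an SE of 0.39 (adjusted p = 0.0727). For both genes the groups did not overlap, in opposite directions, where all genes gave 26.7% with FAE above and 32.5% with FAE below. The log2 fold change of IL1R1 was -1.17 without IFE replicate 1, and that of IL1R2 was 1.70 without IFE replicate 2. These genes adjoin one another, and the log2 ratio of IL1R2 to IL1R1 within an array, chosen after its values were seen and not tested, was -1.42 and -2.79 in FAE and -4.70 and -4.28 in IFE. The co-receptor IL1RAP was nearly level, at 7.36 and 5.51 in FAE and 5.84 and 5.33 in IFE (log2 fold change 0.19, SE 0.28). IL18R1, which binds IL18, was at 0.968 and 0.835 in FAE and 1.56 and 1.84 in IFE, giving a log2 fold change of -0.91 with an SE of 0.40 (adjusted p = 0.198). IL1RL2, the receptor of IL-36, gave 0.29 by its main probe set and -0.94 by another, and neither passed. IL1RL1, the IL-33 receptor, and the neuronal genes IL1RAPL1 and IL1RAPL2 were too dim to be tested.

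By count, type I cytokine receptors held the most called genes of any class, with 4 of 11 tested higher in FAE and 0 lower (5 and 1 at an unadjusted p of 0.05). The share called higher was 36.4% there and 42.9% among the 7 tested interleukins, and 10 interleukins were not tested. Classes of this size are too small for their shares to be ranked. Beside the counts of every class stand 6.92% of all genes higher and 4.84% lower. IL2RG, the common gamma chain that the receptors of IL-2, IL-4, IL-7, IL-9, IL-15 and IL-21 share, was at 68.5 and 53.1 in FAE, against 6.91 and 0.828 in IFE. The IFE arrays differed widely and the second was under background, and the only probe set of the gene is of a type that may cross-hybridise. The log2 fold change was 4.66 (SE 0.86, adjusted p = 0.0178), with 3.13 without IFE replicate 2 and 6.19 when only that replicate was kept, and the call was lost without FAE replicate 1.

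Among the chains that pair with IL2RG, IL21R, which marks B and T lymphocytes, was at 5.78 and 5.70 in FAE and 1.12 and 0.326 in IFE (log2 fold change 3.25, SE 0.57, adjusted p = 0.0151). Its second IFE value was under background. The log2 fold change was 2.36 without IFE replicate 2 and 4.14 when only that replicate was kept, and the call was lost with either FAE replicate left out. IL4R, the chain that binds IL-4, was at 23.0 and 16.7 in FAE and 5.87 and 4.35 in IFE (log2 fold change 1.96, SE 0.30, adjusted p = 0.00918), and did not pass without FAE replicate 1. IL4R and IL21R are neighbours in the genome, and IL9R, which follows them, was at 1.49 and 1.59 in FAE and 0.784 and 1.15 in IFE and did not pass. IL2RA, the alpha chain of the IL-2 receptor, was low in FAE, at 1.58 and 1.40, and under background in IFE, at 0.114 and 0.154. It was at least 1.73-fold higher in FAE, with an adjusted p of 0.0618 that did not pass, and it passed in 5 of 13 alternative settings. IL7R was near background throughout, at 1.13 and 1.02 in FAE and 1.72 and 1.13 in IFE. IL15RA was too dim to be tested, at 0.734 and 0.910 in FAE and 0.364 and 0.172 in IFE.

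Of the chains that bind IL-13, 1 passed. IL13RA2, a decoy receptor of IL-13, was at 24.5 and 18.3 in FAE, against 4.09 and 1.80 in IFE, giving a log2 fold change of 2.96 with an SE of 0.42 (adjusted p = 0.00672). It changed to 2.37 without IFE replicate 2 and 3.55 when only that replicate was kept, and the call was lost without FAE replicate 1. IL13RA1, the chain that signals with IL4R, was at 38.2 and 43.0 in FAE and 51.1 and 102 in IFE. It did not pass (limma, log2 fold change -0.83, SE 0.34, adjusted p = 0.170), and the log2 fold change was -1.33 without IFE replicate 1. Probe sets of IL13RA2 disagreed in size: a second, at 7.17 and 6.35 in FAE and 3.61 and 4.06 in IFE, gave 0.82 and did not pass, and a dim one gave -0.23. With the probe sets of the gene averaged, the IL13RA2 value was 1.18 and still passed. IL5RA was at 8.49 and 11.2 in FAE and 13.5 and 15.5 in IFE (log2 fold change -0.57, adjusted p = 0.233). IL6ST, the signalling chain for IL-6, and IL23R gave 0.47 and 0.06 near background, and IL11RA, IL12RB2 and IL31RA were too dim to be tested.

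In the type II class, 1 of 4 tested genes passed. IL10RA, the chain particular to IL-10 and found on leukocytes, was at 4.80 and 3.14 in FAE and 1.05 and 1.05 in IFE (log2 fold change 1.89, SE 0.35, adjusted p = 0.0177), and did not pass with either FAE replicate left out. IL10RB, which is shared with other cytokines and widely expressed, was at 15.7 and 17.1 in FAE and 11.2 and 19.4 in IFE (log2 fold change 0.15, SE 0.32, adjusted p = 0.802), and its other 2 tested probe sets gave -0.08 and 0.19. IL22RA1, a receptor chain known from epithelial rather than blood cells in mammals, was almost the same on all 4 arrays, at 17.02 and 17.6 in FAE and 16.6 and 17.5 in IFE (log2 fold change 0.02, SE 0.24). IL20RA gave 0.95 (adjusted p = 0.117), with 2.75 and 2.81 in FAE and 1.23 and 1.68 in IFE. IL22RA2, a soluble antagonist of IL-22, was too dim to be tested, with 0.624 and 0.448 in FAE and 0.134 and 0.115 in IFE, all under background, as was IL20RB.

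IL17REL, a gene related to the receptor IL17RE, had the largest difference among those that were above background on every array. It was at 43.5 and 39.3 in FAE, against 2.50 and 3.40 in IFE, giving a log2 fold change of 3.83 with an SE of 0.28 (adjusted p = 0.00145). Like CXCR4, it passed under all 13 alternative settings. IL17RA, the common chain of IL-17 receptors, was at 0.910 and 1.20 in FAE and under background in IFE, at 0.511 and 0.781, and did not pass (adjusted p = 0.464). IL17RD, at 1.94 and 1.44 in FAE and 0.923 and 0.755 in IFE, did not pass either (log2 fold change 1.001, adjusted p = 0.185). The enzyme IL4I1, an amino acid oxidase named for its induction by IL-4, overlapped between the groups.

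**Figure D3:**
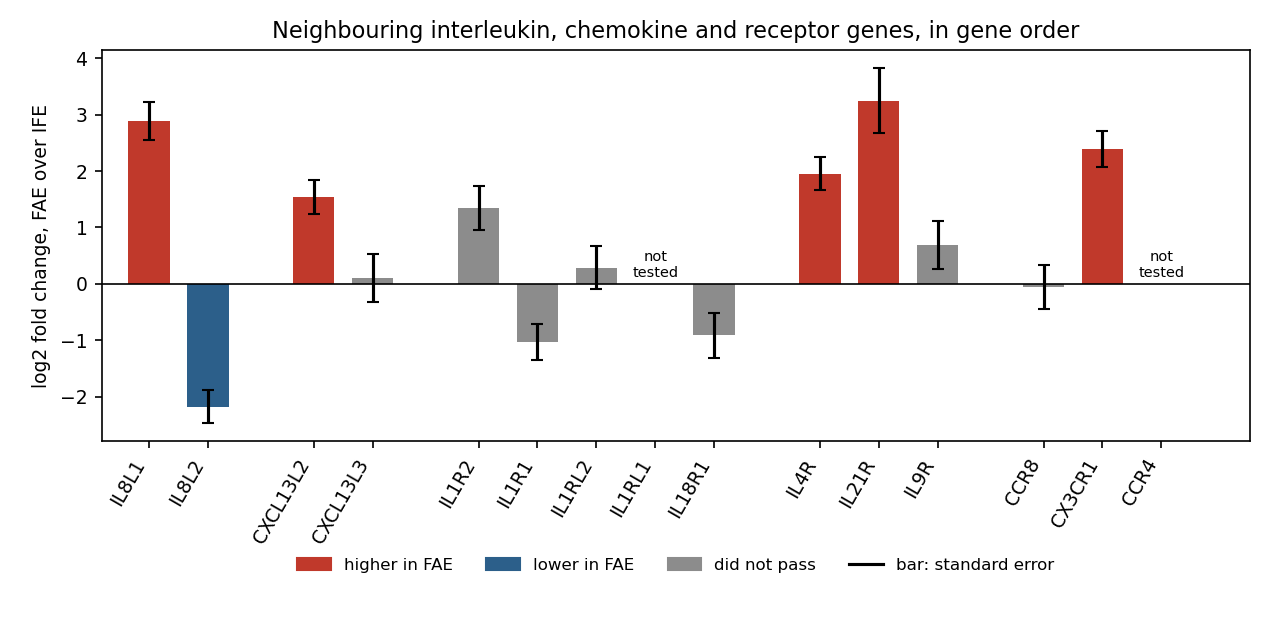
Log2 fold change, FAE over IFE, of genes that adjoin each other in the chicken genome with no protein-coding gene between, drawn in gene order as 5 runs with gaps between runs, and with bars for the standard error; the IL8L1 column is the fitted value, with both IFE arrays under background. IL8L1 and IL8L2 differ in sign, IL4R and IL21R are both higher in FAE, and CX3CR1 is higher between CCR8, which did not pass, and CCR4, which was too dim to be tested.

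Of the 26 genes too dim to be tested, 20 were under background on all 4 arrays. The rest were CCR8L, IL15RA, IL17F, IL1RAPL2, IL4 and XCL1, each above the background level on at least 1 array. More than 1 probe set was available for 31 of the 74 genes. Of the 46 further probe sets, 14 (for 11 genes) were bright enough to test, and 0 passed when adjusted over all tested probe sets (limma, 3 at an unadjusted p of 0.05, lowest adjusted p = 0.122). The sign was that of the brighter probe set for 9 and the opposite for 5. Replicate spread differed between the groups: the median absolute log2 difference between replicates was 0.243 in FAE and 0.512 in IFE over the 48 genes, against 0.211 and 0.443 over all tested genes. A single gene, CXCL12, differed by over 1 log2 unit between the FAE arrays, and 10 did so between the IFE arrays.

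The wider list of signalling genes held components of these pathways, atypical chemokine receptors and other cytokines and their receptors, and 18 of its 100 tested genes were higher in FAE and 5 lower, beside 6.92% and 4.84% of all genes, and their median log2 fold change was 0.17. The counts moved with single arrays, to 8 higher and 0 lower genes without FAE replicate 1 (1.77% and 0.366% of all genes) and to 10 and 4 when the other FAE array was left out (2.7% and 1.56%). Leaving out IFE replicate 1 gave 36 higher and 11 lower (18.7% and 15.3% of all genes), and leaving out its partner gave 26 and 12 (12.4% and 11.5%). At an unadjusted p of 0.05, 9 were lower without FAE replicate 1. Of the 18 higher genes, 9 belonged to the G protein pathway of chemokine receptors, where 26 were tested and 0 were lower (13 and 0 at an unadjusted p of 0.05). DOCK2, which activates Rac in migrating lymphocytes, was at 110 and 95.02 in FAE and 9.03 and 5.59 in IFE (log2 fold change 3.84, SE 0.30, adjusted p = 0.00145). PREX1, another activator of Rac, RAC2 itself, PIK3R5, a regulatory subunit of the kinase PI3K gamma, and RGS18, which shortens G protein signals, had log2 fold changes of 3.63, 3.19, 2.98 and 3.50. All 5 are known from blood cells. RGS18 also stands on the thrombocyte list, where 2 of 6 tested genes were higher, RGS18 among them, and 2 lower. CSF1R and SPI1 stand on the macrophage list, and most of the tested markers of macrophages and B cells given above were higher on the same arrays.

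Beside 6.92% higher and 4.84% lower of all genes, the JAK, STAT and SOCS genes gave 3 higher and 1 lower of 19 tested. These were JAK3, the kinase that binds the common gamma chain, SOCS1 and the phosphatase PTPN6 as higher, and SOCS3 as lower, all named here after their values were seen. JAK3 was at 3.81 and 2.46 in FAE and 0.430 and 1.003 in IFE, with both IFE values under background. It was thus at least 3.57-fold higher in FAE, and its adjusted p of 0.0372 (limma) is that of the fitted difference, not of this bound. The feedback inhibitors SOCS1 and SOCS3 went in opposite directions. SOCS1 was at 13.1 and 9.06 in FAE and 2.66 and 2.79 in IFE (log2 fold change 2.00, SE 0.30), and SOCS3 at 3.75 and 3.28 in FAE and 14.9 and 7.35 in IFE (-1.58, SE 0.38).

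In the pathway from IL-1 receptors to NF-kB, 1 of 24 tested genes was called, as lower in FAE. This share, 4.17%, was close to the 4.84% of all genes called lower. The gene was the nuclear regulator NFKBIZ, at 72.0 and 74.9 in FAE, against 196 and 130 in IFE (limma, log2 fold change -1.12, SE 0.25, adjusted p = 0.0318), also named after its value was seen. No gene of that pathway was called higher (limma, 1 at an unadjusted p of 0.05). Among other cytokines and their receptors, 2 of 16 tested genes were higher and 2 lower, beside 6.92% and 4.84% of all genes. CSF1R, the growth factor receptor of macrophages, was higher, with a log2 fold change of 3.50, and LIFR, the receptor of leukaemia inhibitory factor, was lower at 16.3 and 18.7 in FAE and 63.3 and 80.5 in IFE (-2.03, SE 0.24, adjusted p = 0.00371). CRLF3 was the other higher gene (1.45, limma, adjusted p = 0.0169) and PRLR the other lower gene (-1.91, adjusted p = 0.0153), both named after their values were seen. The atypical chemokine receptor ACKR2, also named after its value was seen, was higher, at 4.66 and 3.27 in FAE and 0.957 and 1.01 in IFE. Its log2 fold change was 1.99 (SE 0.34, limma, adjusted p = 0.0137), with the IFE replicate 2 value under background. Of 14 tested transcription and processing genes, 3 were higher and 1 lower, beside the same shares of all genes. The median log2 fold change of the 14 was -0.43. The leukocyte factors SPI1 and IRF4 and the metalloprotease MMP2 were higher, by 3.27, 3.76 and 2.27 on the log2 scale. CEBPB, a transcription factor induced by IL-6 and named after its value was seen, was lower, at 23.3 and 21.3 in FAE and 41.6 and 66.1 in IFE (-1.24, SE 0.28, adjusted p = 0.0358).

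**Figure D4:**
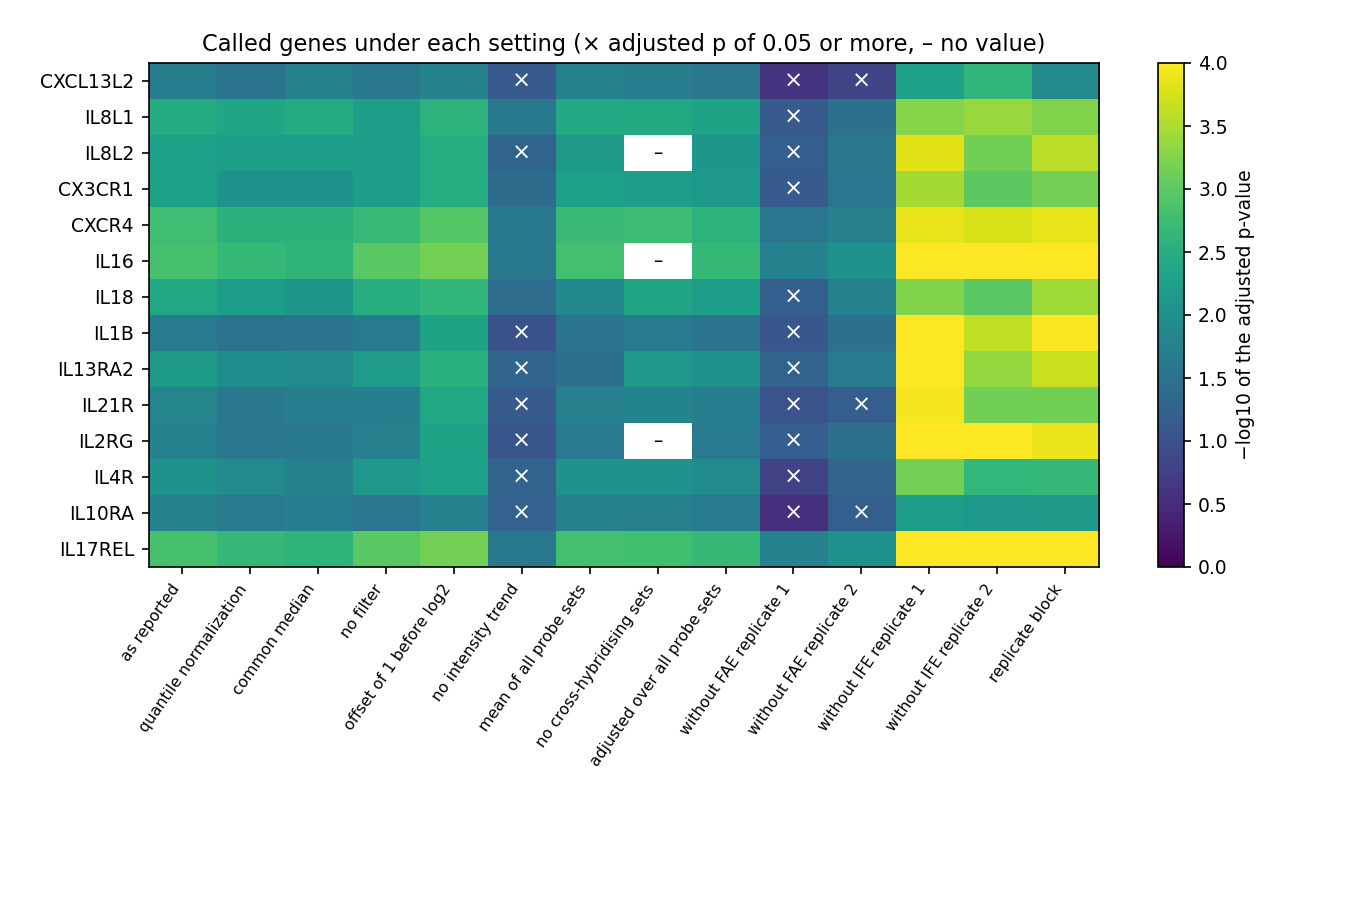
Adjusted p-value, as −log10 on the colour scale, of the 14 called genes as reported and under 13 alternative settings, with a cross where it was 0.05 or more and a dash where no value could be computed. The column without FAE replicate 1 holds 11 crosses and that without the intensity trend 8, while the rows of CXCR4, IL16 and IL17REL hold none.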

How the data were processed

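RNA from 2 FAE and 2 IFE samples was amplified by a 2-cycle protocol, labelled with biotin and hybridised to a chicken Affymetrix array, per the labels' protocols. The authors deposited linear intensities; the submitters' processing notes name MAS5, with no settings given in the sources used here. The median of every deposited column is 1.

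Arrays were scaled to a common mean trimmed by 2% at each end, and log2 was taken with no offset. Of 38535 probe sets, 96 controls were left out. Genes were named from the platform annotation, where 27168 probe sets name 1 gene, and all 74 symbols used here matched the gene table of bGalGal1.mat.broiler.GRCg7b, which served only for names and gene order. One further probe set, which names a member and another gene, was not used. CX3CL1 and CX3CR1 were counted as members, although no digit follows CX3C in their symbols; without them, 12 of 46 tested genes were higher and 1 lower.

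Probe sets whose mean signal reached the 40th percentile (0.695) were fitted, 23063 in all, by limma 3.58.1 (R 4.3.3), using lmFit, then eBayes with its intensity trend, and two-sided p-values were adjusted by Benjamini-Hochberg over 10388 genes, 1 probe set each, at a threshold of 0.05. The fit was tested on simulated data. Where both arrays of a group were under background, only a bound was taken, against that background, and is written as at least N-fold. The p-value beside it is that of the fit to the signals as they are, and the bound was not tested. The labels name no batch. Values on every array are given for members that passed, for tested members of known ligand and receptor pairs, and for the 6 largest differences that did not pass; some dim members and further probe sets were added. The rule named the 10 signalling genes with the lowest adjusted p, and the 3 markers of each list with the lowest. Those 3 are given here for the macrophage, B cell and T cell lists only. Other markers were named apart from that ranking. Marker and signalling lists held 346 entries, of which 243 matched a symbol. Markers of heterophils, mast cells, thrombocytes, erythrocytes, mucous cells, fibroblasts, endothelium and M cells gave 1, 1, 2, 2, 0, 1, 1 and 6 higher and 1, 1, 2, 0, 2, 1, 0 and 1 lower of 4, 3, 6, 5, 6, 13, 8 and 13 tested. The members and lists were chosen with earlier results of these data known.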

Additional observations from a re-analysis of the deposited data

How the results depend on the processing

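The count of 13 higher and 1 lower interleukin, chemokine and receptor genes was 13 and 1, with the same genes, under quantile normalization, the common median, the mean of all probe sets and adjustment over all probe sets. Higher genes numbered 14 without the filter (5.37% of all genes higher), 15 with an offset of 1 (7.73%) and 14 with the replicate block (8.38%). They numbered 11 with probe sets of possible cross-hybridisation left out (6.49%). That setting left 0 lower genes (limma, 3 at an unadjusted p of 0.05), since IL8L2 then had no probe set. Without the intensity trend there were 7 higher genes, 6 of them among the 13 and the other IL2RA, and 0 lower (limma, 4 lower at an unadjusted p of 0.05). In that setting 3.04% of all genes were higher and 0.818% lower. With 1 replicate left out, the counts ranged from 3 to 17 higher and from 0 to 3 lower, the 0 without FAE replicate 1 (limma, 2 at an unadjusted p of 0.05). The 5 lower signalling genes became 2 with the common median (3.26% of all genes lower) and 1 without the intensity trend (0.818%). They numbered 3 with possible cross-hybridisers left out (5.05%) and 9 with the replicate block (6.84%). Leaving out 1 replicate gave 8 to 36 higher and 0 to 12 lower signalling genes. The cause was not tested. No called gene changed sign under any of these settings. The literal symbol rule, added after seeing the data, gave 12 higher and 1 lower. The median log2 fold change of all genes was 0.06 with the common median and -0.07 with the trimmed mean. The offset gave smaller log2 fold changes for dim genes, such as 2.23 for CXCR4 and 2.01 for IL21R. Replicate numbers are not said to pair the samples, and same-numbered deviations correlated at 0.0246 over tested probe sets; the replicate block added CCL19 and lost none of the 14 calls. Signals near background limit CXCR4, IL1B, IL2RG, IL21R and IL8L1, whose IFE values lay under it on at least 1 array. IL10RA lay just above background on IFE replicate 2, at 1.05 against 1.02.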
